A study of Mus musculus with 2 samples.

Results

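The genes described here are the 268 rows of the table of 12860 genes whose mouse symbol is Zfp followed by digits alone, a name given to genes for zinc finger proteins, and the other 12592 genes serve as the comparison. All 268 had reads in both libraries. The table holds only genes with a CPM (read counts scaled by library size) above 1 in at least 1 library, and Zfp genes below that are not analysed here. Of the 268, 22 passed through 1 library only, 2 through the P95H library and 20 through the WT library, and such a gene had to differ between the libraries.

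RNA of whole, unsorted bone marrow was sequenced from 1 P95H mouse and 1 WT mouse, to ask what the leukaemia-associated P95H form of the splicing factor Srsf2 does to marrow transcripts when its own locus expresses it. The P95H mouse was an Srsf2 P95H/+ female of 14 weeks, and the WT mouse an Srsf2+/+ male of 12 weeks. Both were C57BL/6 mice that carried R26CreERT2, a tamoxifen-activated Cre recombinase at the broadly active Rosa26 locus, and both were given tamoxifen in vivo. Cre and tamoxifen are therefore shared, while genotype, sex, age and the individual mouse cannot be told apart. With 1 library per genotype there is no replicate error and no p-value. Each ratio is P95H CPM over WT CPM, followed in brackets by its 95% counting interval.

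C2H2 zinc fingers are short folds in which a pair of cysteines and a pair of histidines hold a zinc ion, and arrays of them read DNA, RNA or other proteins. The largest mammalian family adds a KRAB box, which recruits the corepressor Trim28 and with it the histone methyltransferase Setdb1, and many of its members silence retroelements. KRAB zinc finger genes lie in clusters of related copies and are generally transcribed at low levels. A few Zfp-named proteins are no DNA-binding factors of this kind, such as Zfp36 (tristetraprolin), whose CCCH fingers bind AU-rich messenger RNA.

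Of the 268 members, 266 had a complete coding sequence in the GENCODE M21 annotation of GRCm38, and 156 of these encoded a KRAB box, 110 did not and 11 encoded a SCAN box, a dimerisation domain. A standard C2H2 pattern was found 0 to 33 times per protein, with a median of 10, in proteins of 76 to 2698 residues. The 5 sequences that follow, each the coding bases of 1 finger and the linker after it, come from 5 members that were lower in P95H marrow. They are shown because a C2H2 finger, by this pattern, occurs in all but 13 of the 266 proteins. Capitals mark the codons of the zinc-binding cysteines and histidines.
Zfp60: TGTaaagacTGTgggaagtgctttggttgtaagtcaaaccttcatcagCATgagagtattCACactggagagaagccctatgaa
Zfp626: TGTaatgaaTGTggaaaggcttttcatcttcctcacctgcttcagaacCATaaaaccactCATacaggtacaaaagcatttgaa
Zfp974: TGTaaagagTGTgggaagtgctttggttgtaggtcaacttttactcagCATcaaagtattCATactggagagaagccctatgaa
Zfp951: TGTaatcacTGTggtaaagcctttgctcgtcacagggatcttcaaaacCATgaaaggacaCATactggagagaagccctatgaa
Zfp429: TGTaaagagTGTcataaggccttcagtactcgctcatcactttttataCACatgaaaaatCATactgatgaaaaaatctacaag

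Over these 84 bases Zfp60 and Zfp974, which lie close together on chromosome 7, were identical at 74 (88.1%), and the other 9 pairs at 51.2% to 72.6%. The KRAB boxes of 3 members that were higher in P95H marrow, Zfp991, Zfp992 and Zfp993 on chromosome 4, are shown to make plain how alike recent copies are. Codons 12 to 53 are given, and the capital marks the sole position of 126 at which they differ.
Zfp991: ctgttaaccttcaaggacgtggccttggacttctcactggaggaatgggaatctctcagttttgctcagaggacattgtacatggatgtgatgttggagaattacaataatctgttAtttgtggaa
Zfp992: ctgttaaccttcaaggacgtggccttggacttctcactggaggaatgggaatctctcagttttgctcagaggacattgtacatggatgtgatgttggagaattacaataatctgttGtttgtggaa
Zfp993: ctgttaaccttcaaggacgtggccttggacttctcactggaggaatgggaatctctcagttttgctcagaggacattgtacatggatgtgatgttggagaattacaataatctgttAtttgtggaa

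Likeness of this kind bears on counting. For each member, the share of all 75-base words of its transcripts that also occur in another gene's transcripts was computed, 75 bases being the read length. It was under 1% in 152 members, 1% to under 10% in 67, and 10% or more in 49. The sources used here do not give how reads with several matches were treated or whether counting used strand, so values of the 49 are uncertain, as are those of any member that overlaps another gene.

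The table held 42366695 counts in P95H marrow and 44733445 in WT marrow. Markers of all 8 marrow cell types examined were detected. All 16 neutrophil markers were higher in P95H marrow, with summed levels of 112991 CPM against 58684 CPM in WT marrow. Of the 7 other types every measured marker was lower in P95H marrow: 18 of 18 for B cells (656 CPM against 1887 CPM in WT marrow), 8 of 8 for stem and progenitor cells (325 against 493 CPM), 12 of 12 for T and natural killer cells (19.1 against 47.5 CPM), 13 of 13 erythroid (9742 against 16558), 9 of 9 dendritic (321 against 1018), 7 of 7 megakaryocyte (47.4 against 68.4) and 7 of 7 stromal and endothelial ones (163 against 265). Counting intervals of the ratio lay below 1 for 5 of 7 megakaryocyte markers and 7 of 8 stem and progenitor markers. They did so for every measured marker of the remaining lower types. The dendritic list includes Cd74, H2-Aa, H2-Ab1 and H2-Eb1, which are not particular to dendritic cells. No marker was at 0 in either library, and the part of cell composition in the members' values was not tested.

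As a group the members were slightly lower in P95H marrow. Their difference, the P95H minus the WT value of log2(CPM + 1), had a median of -0.20, against 0.00 in the other genes, and it lay below 0 in 189 members (70.5%), against 49.9% of the other genes. The interquartile range of members ran from -0.45 to 0.05, and that of the other genes from -0.23 to 0.23. Over the 246 members with a CPM of at least 1 in both libraries the median was -0.17. In bulk marrow, fewer cells of a type and less RNA per cell cannot be told apart.

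The scale of the shift depends on the totals used. With plain library totals in place of the authors' scaled ones, the median of all genes moved to -0.18, that of the members to -0.36, and 228 members lay below 0 (85.1%), against 69.9% of the other genes. Summed over members, there were 212861 counts in P95H marrow and 267867 in WT marrow, which is 0.502% of the P95H counts (exact binomial interval 0.5003% to 0.505%) and 0.599% of the WT counts (0.597% to 0.601%). On the authors' scale the summed levels were 5362 CPM in P95H marrow and 5594 CPM in WT marrow, a ratio of 0.958 (0.953 to 0.964).

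**Figure D1:**
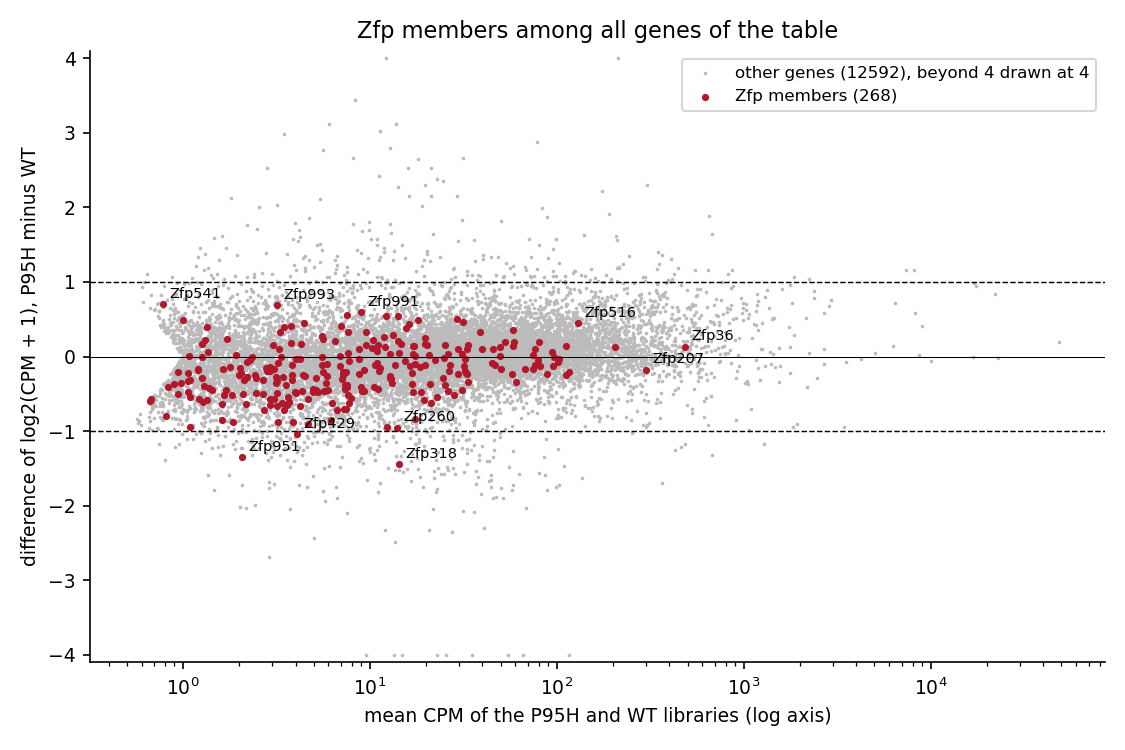
Difference of log2(CPM + 1), P95H minus WT, against the mean CPM of both libraries on a log axis, for 268 Zfp members (red) and 12592 other genes (grey). Dashed lines mark a difference of 1 in each direction; 3 members lie below the lower line, none lies above the upper one, and the low-level members on the left sit mostly below 0.

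Members were weakly expressed. Their median was 6.39 CPM in P95H marrow and 7.95 CPM in WT marrow, and that of the other genes was 20.01 CPM (P95H) and 20.2 CPM (WT), so the comparison was made within 5 expression bins, equal-sized groups of all genes by mean CPM. The bins held 87, 82, 53, 26 and 20 members from the lowest to the highest. Low genes as a whole leaned towards lower values in P95H marrow, with medians of -0.13 and -0.09 in the other genes of the lowest 2 bins. Members lay below them there, with medians of -0.32 and -0.24. From the middle bin upwards the members' medians were -0.11, -0.01 and -0.04, against 0.00, 0.05 and 0.12 in the other genes. In each of the 5 bins the share of members below 0 was larger than that of the other genes, 83.9% against 61.5% in the lowest and 60.0% against 34.7% in the highest.

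Taken over all levels, members were not more concentrated around 0 than the other genes: 47.4% had a difference within 0.25 of 0, against 53.5%. At -0.5 or less were 17.9% of members, against 10.3% of the other genes, and at 0.5 or more 2.24%, against 9.76%. These shares were not matched for level, and members were the more weakly expressed. In the other genes the interquartile range of the difference was 0.60 wide in the lowest bin and 0.43 in the highest. Taken around the group's own mean in each bin, the SD was smaller in members. The SD of the log2 ratio of CPM was 0.64, 0.43, 0.42, 0.24 and 0.18 in members from the lowest to the highest bin, against 0.90, 0.61, 0.53, 0.51 and 0.45 in the other genes. Pooled over the bins, the members' SD was 0.70 times that of the other genes. Counting alone would give an SD of 0.25, 0.13, 0.07, 0.05 and 0.03 at the members' read numbers, and the members' SD was larger than that in each bin. The interquartile range of members was not narrow throughout. Its width, on the log2 ratio, was 0.62 against 0.56 in the second bin and 0.53 against 0.41 in the middle one, and it was below that of the other genes in the remaining 3.

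**Figure D2:**
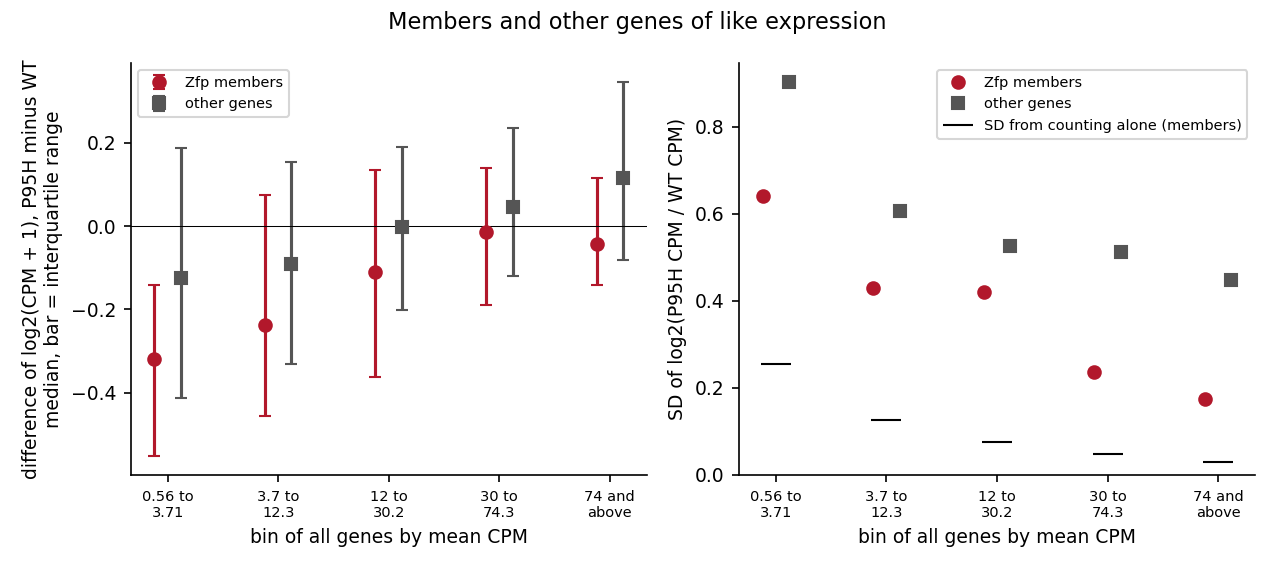
Left, the median difference of log2(CPM + 1), P95H minus WT, in 5 bins of all genes by mean CPM, with bars for the interquartile range; right, the SD of the log2 ratio of CPM in the same bins, with black dashes for the SD that counting alone gives. Members (circles) have a lower median and a smaller SD than other genes (squares) in each bin, and their SD lies above the counting SD.

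Set against the other genes of its bin, a member was below the middle gene in 182 cases (67.9%), in the lowest quartile in 108 (40.3%) and in the highest quartile in 35 (13.1%). The lowest decile held 29 members and the next one 65, where an equal share would be 26.8, and the highest decile held 11. Outliers were few: 2 members, Zfp318 and Zfp951, lay below the middle 95% of genes of like expression, and 0 lay above it. Zfp951 was above 1 CPM in WT marrow alone, so its place in the table already required a lower P95H value. Most members thus stood low for their level, most often in the second decile, and few lay beyond the middle 95%.

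**Figure D3:**
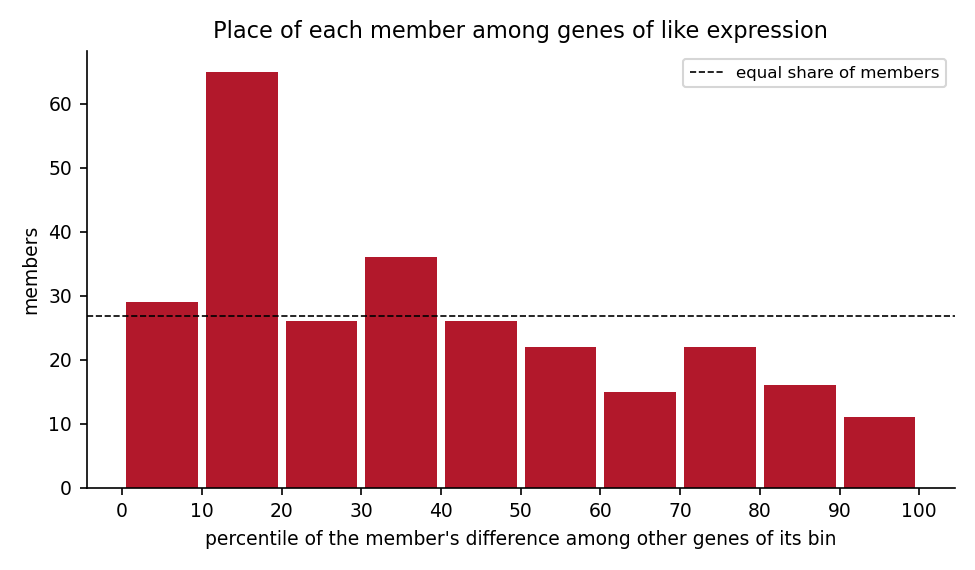
Number of members by the percentile of their difference among the other genes of the same expression bin, in deciles, with a dashed line at the 26.8 members of an equal share. The bar from 10 to 20 holds 65 members, and the bars above 60 hold 11 to 22 each.

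By the size rule, a difference of at least 1, 0 members were called higher in P95H marrow, against 1.76% of all genes tested, and 3 were called lower (1.12%), against 2.1%. Both shares are below the background. By counting error alone, the interval of the ratio lay above 1 in 46 members (17.2%), against 34.1% of all genes, and below 1 in 136 (50.7%), against 32.8%. These shares depend on level. Intervals lay above 1 in 6.90% of members against 18.1% of the other genes in the lowest bin, and in 30.0% against 58.0% in the highest. They lay below 1 in 55.2% of members against 34.6% in the lowest bin, and in 45.0% against 28.6% in the highest. An interval wholly above 1.5 was found for 1 member (0.373%), against 5.44% of all genes, and one wholly below the inverse of 1.5 for 17 (6.34%), against 6.08%. Of the 17, 6 entered the table through the WT library alone. Among the 246 members above 1 CPM in both libraries, intervals lay below 1 in 119 (48.4%), against 31.7% of all such genes, and wholly below the inverse of 1.5 in 11 (4.47%), against 4.88%. By the ratio itself, 43 of the 246 (17.5%) lay below the inverse of 1.5, against 9.21% of the other genes, and 6 (2.44%) above 1.5, against 8.34%.

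The member with the lowest value was Zfp318, which in mouse B cells is needed for the long transcript that carries IgD. It had 288 counts (7.26 CPM) in P95H marrow and 1028 counts (21.5 CPM) in WT marrow, a difference of -1.44 and a ratio of 0.338 (0.295 to 0.385). Ighd, the constant region gene of IgD, had 245 counts in P95H marrow and 1677 in WT marrow, a difference of -2.33. All 18 B cell markers examined were lower in P95H marrow, with a summed level of 656 CPM against 1887 CPM in WT marrow, and none was at 0. Their part in the Zfp318 result was not tested.

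Zfp951, a KRAB zinc finger gene on chromosome 5, had 29 counts (0.731 CPM) in P95H marrow and 163 counts (3.40 CPM) in WT marrow, a difference of -1.35 and a ratio of 0.215 (0.139 to 0.320). None of its 75-base words occurs in another annotated gene, but it entered the table through the WT library alone. Zfp429, a KRAB member on chromosome 13, had 92 counts (2.32 CPM) in P95H marrow and 279 counts (5.83 CPM) in WT marrow, a difference of -1.04 and a ratio of 0.398 (0.311 to 0.505). It shares 12.0% of its words, with Zfp456 and Rsl1 among others. These are the 3 members past the size rule. With 5 added to the CPM in place of 1, Zfp318 alone remained past it.

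Just short of the rule stood Zfp260, with 365 counts in P95H marrow and 896 in WT marrow (difference -0.95, ratio 0.491, 0.434 to 0.556), and Zfp512, with 323 P95H and 795 WT counts (-0.95, ratio 0.490, 0.429 to 0.558). Zfp974 had 17 counts in P95H marrow and 84 in WT marrow, and its ratio of 0.244 (0.136 to 0.414) is lower than that of Zfp318, but at 0.428 CPM in P95H marrow and 1.75 CPM in WT marrow the added 1 holds its difference at -0.95. The same holds for Zfp82, with 13 counts in P95H marrow and 62 in WT marrow, a difference of -0.79 and a ratio of 0.253 (0.128 to 0.465), though 31.8% of its words are shared. For members at such levels the difference understates the ratio. A ratio of CPM of 0.5 or less was found in 20 listed members (7.46%), against 4.94% of the other genes, but 11 of the 20 entered the table through the WT library alone and so had to be low. Of the 246 members above 1 CPM in both libraries 9 had such a ratio (3.66%), against 3.14% of the other genes above 1 CPM in both. A ratio of 2 or more was found in 0 of these 246, against 2.31%.

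Among the other members whose interval lay wholly below the inverse of 1.5 were Zfp605, with 117 counts in P95H marrow and 306 in WT marrow, Zfp867, with 40 P95H and 128 WT counts, and Zfp940, with 34 P95H and 113 WT counts. Zfp358, with 164 counts in P95H marrow and 393 in WT marrow, and Zfp664, with 483 P95H and 1082 WT counts, stood at -0.84 each. Zfp882, with 72 P95H and 173 WT counts, stood at -0.71, while Zfp455 (13 P95H and 48 WT counts) and Zfp750 (14 P95H and 48 WT counts) stood at -0.59 and -0.57. Zfp940, Zfp455 and Zfp750, like Zfp951, Zfp974 and Zfp82 above, were under 1 CPM in P95H marrow and entered the table through the WT library alone. Most of this set had few reads. Zfp664, with the most reads of these 8 in both libraries, had a ratio of 0.538 (0.483 to 0.600).

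The largest positive difference belonged to Zfp541, known in mouse as a germ cell protein of meiosis. It had 48 counts (1.21 CPM) in P95H marrow and 17 counts (0.355 CPM) in WT marrow, a difference of 0.71 and a ratio of 3.41 (1.92 to 6.32). It was the member whose interval lay wholly above 1.5, and it passed the authors' filter through the P95H library alone. Zfp503 passed in the same way, with 53 counts in P95H marrow and 32 in WT marrow, a ratio of 2.00 (1.27 to 3.20). The higher members with more reads differed less. Zfp53 had 671 counts in P95H marrow and 538 in WT marrow (ratio 1.504, 1.34 to 1.69), Zfp64 had 579 P95H and 464 WT counts (1.51, 1.33 to 1.70), and Zfp597 had 1373 P95H and 1158 WT counts (1.43, 1.32 to 1.55). Zfp513, Zfp414 and Zfp213 stood between 0.45 and 0.49 as differences. Words are shared to 23.6% in Zfp597, 24.3% in Zfp414 and 49.9% in Zfp213.

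**Figure D4:**
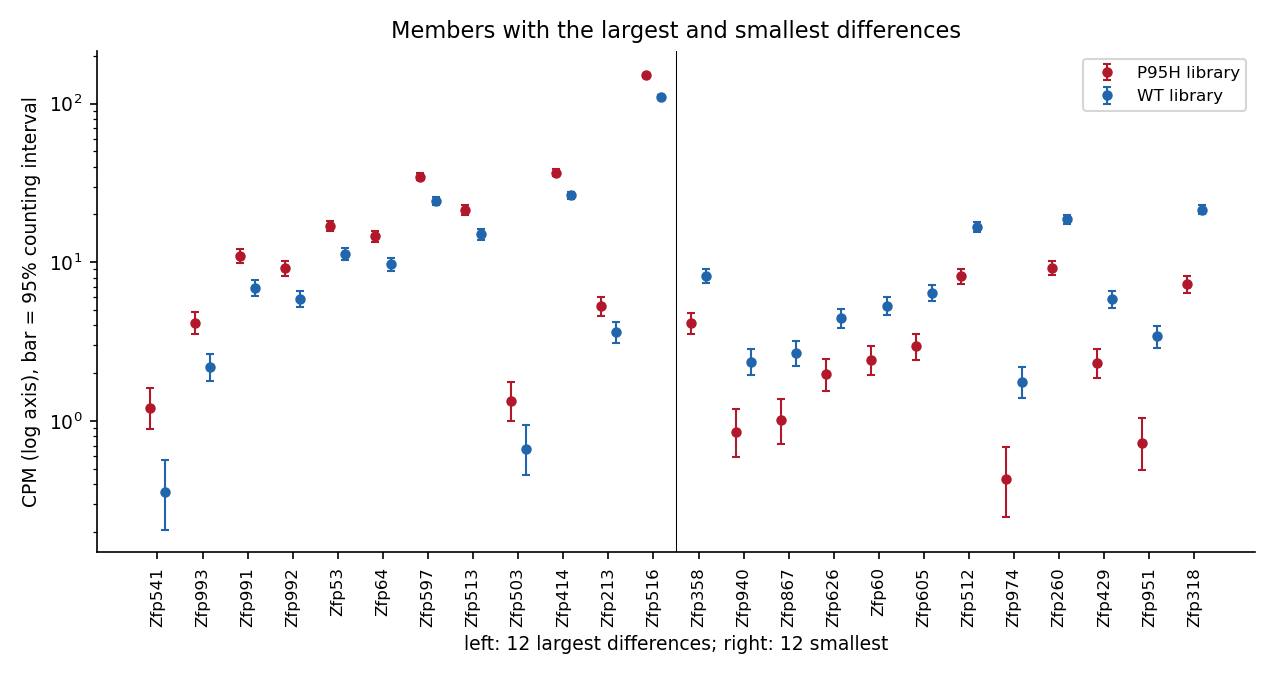
CPM on a log axis in P95H marrow (red, left of each pair) and in WT marrow (blue), for the 12 members with the largest differences and the 12 with the smallest, with bars for 95% counting intervals. On the right, P95H points lie below WT points without overlap of the bars; Zfp318 stands at 7.26 CPM in P95H marrow and 21.5 CPM in WT marrow.

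The members with the highest levels differed little between the libraries. Per kilobase of transcript, Zfp207 had 180 CPM in P95H marrow and 203 CPM in WT marrow, Zfp36 had 183 (P95H) and 167 (WT), and Zfp706 had 110 (P95H) and 130 (WT). Next came Zfp622, with 41.8 CPM per kilobase in P95H marrow and 37.8 in WT marrow. Zfp292 had 4287 counts in P95H marrow and 5996 in WT marrow, a ratio of 0.862 (0.829 to 0.897), and Zfp710 had 4018 P95H and 4969 WT counts, a ratio of 0.975 (0.935 to 1.02). None of the 8 members with the highest mean CPM differed by more than 0.45, the value of Zfp516.

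Members that act on RNA or ribosomes had a median of -0.17 over 11 measured of 11 listed, with 7 below 0, 0 past the size rule upwards and 1, Zfp318, downwards. Over all genes, 50.3% lay below 0, 1.76% were past the rule upwards and 2.1% downwards, and 70.5% of all members lay below 0. Zfp36 had 20247 counts (510 CPM) in P95H marrow and 22266 counts (465 CPM) in WT marrow, a ratio of 1.10 (1.08 to 1.12). Zfp106, an RNA-binding protein whose words are shared to 23.9% with Gm26899, had a ratio of 1.10 (1.07 to 1.13), and Zfp622, a ribosome assembly factor, of 1.10 (1.06 to 1.15). The direction of these 3 depends on the scaling, since with plain totals their differences were -0.06, -0.06 and -0.05.

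Lower in P95H marrow was Zfp207 (BuGZ), a spindle protein, with 11176 counts, against 15207 in WT marrow, a ratio of 0.886 (0.865 to 0.908). Zfp598, the ubiquitin ligase that marks collided ribosomes, had 1203 counts in P95H marrow and 1714 in WT marrow, a ratio of 0.847 (0.786 to 0.912). Zfp346, which binds double-stranded RNA, had 296 P95H and 508 WT counts, a ratio of 0.703 (0.607 to 0.813). Zfp473, known in human as a histone pre-mRNA processing factor, had 62 counts in P95H marrow and 125 in WT marrow, a ratio of 0.598 (0.434 to 0.818). The intervals of Zfp326 and of Zfp830, both tied to splicing complexes, took in 1, and that of Zfp593, with 61.5% of its words shared, ended at 0.998.

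Of 6 listed members that silence imprinted genes or retroelements, 5 were measured, with a median of -0.20, 4 below 0 and 0 past the size rule. Over all genes, 50.3% lay below 0, 1.76% were past the rule upwards and 2.1% downwards. Zfp445, which keeps imprints in mouse embryos, had 3160 counts in P95H marrow and 3532 in WT marrow, a difference of 0.11 that becomes -0.08 with plain totals. Zfp638, known from human cells as the partner of the HUSH silencing complex on unintegrated retroviral DNA, had 4047 P95H and 5782 WT counts, a ratio of 0.844 (0.811 to 0.879). Zfp568, a repressor of a placental Igf2 transcript, had a ratio of 0.868 (0.798 to 0.943). Zfp809, which silences murine leukaemia virus, had a ratio of 0.892 (0.785 to 1.01), and the retroelement repressor Zfp932 stood at 23 P95H and 52 WT counts, a ratio of 0.533 (0.312 to 0.887), with 26.4% of its words shared and entry through the WT library alone. Zfp57, the remaining one, was not analysed here.

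Of 25 measured genes of the KRAB corepressor pathway 21 lay below 0, against 50.3% of all genes, with a median of -0.13. Intervals lay below 1 for 17, against 32.8% of all genes, and above 1 for 2, against 34.1%. The lowest was Chd3, a chromatin remodeller of the NuRD complex, with 1285 counts in P95H marrow and 3198 in WT marrow (difference -1.02), the sole gene of the list past the size rule. Dnmt3a, a DNA methyltransferase, had 1200 P95H and 2159 WT counts (-0.56). Trim28 had 3610 counts in P95H marrow and 5167 in WT marrow, a ratio of 0.843 (0.807 to 0.879). Setdb1 had 1465 P95H and 2130 WT counts, a ratio of 0.830 (0.776 to 0.887). Trim28 and Setdb1 were chosen for their role after their values were seen.

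Members known from lymphocytes and progenitors comprised 7 measured of 10 listed, with a median of -0.20, 4 below 0 and 1, again Zfp318, past the size rule. Over all genes, 50.3% lay below 0, 1.76% were past the rule upwards and 2.1% downwards. Zfp521, a cofactor of early haematopoietic progenitors, had 47 counts in P95H marrow and 102 in WT marrow, a ratio of 0.556 (0.385 to 0.793). The 8 stem and progenitor markers examined were all lower too, with summed levels of 325 CPM in P95H marrow and 493 CPM in WT marrow, and their part was not tested. Intervals lay below 1 for 7 of these 8. Zfp362 had 246 P95H and 460 WT counts, a ratio of 0.645 (0.550 to 0.755). Zfp335, needed for T cell maturation in mice and with 14.5% of its words shared, had a ratio of 1.11 (1.05 to 1.17), and Zfp384, fused to other genes in some human lymphoid leukaemias, of 1.10 (1.03 to 1.17), but their differences turn to -0.05 and -0.06 with plain totals. The intervals of Zfp341 and Zfp608 took in 1, and Zfp366, Zfp423 and Zfp683 were not analysed here.

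Members of chromatin and transcription complexes, 13 measured of 15 listed, had a median of -0.11, 8 below 0 and 0 past the size rule. Over all genes, 50.3% lay below 0, 1.76% were past the rule upwards and 2.1% downwards. Zfp516, a transcriptional activator of brown fat, had 5980 counts (151 CPM) in P95H marrow and 5285 counts (110 CPM) in WT marrow, a ratio of 1.37 (1.32 to 1.42). Zfp281, a regulator of pluripotent cells, had 2592 P95H and 2432 WT counts, a ratio of 1.29 (1.22 to 1.36). Zfp644, a partner of the G9a histone methyltransferase, had 3222 counts in P95H marrow and 4567 in WT marrow, a ratio of 0.851 (0.813 to 0.890). Zfp148 stood at -0.13, Zfp143, a promoter and chromatin loop factor, at -0.12, Zfp592 at -0.16 and its partner Zfp687 at 0.16, which is -0.03 with plain totals. Zfp217, a CoREST subunit, had a ratio of 0.994 (0.952 to 1.04). Of the low members, Zfp219 had a ratio of 0.837 (0.723 to 0.968) and Zfp827 of 0.738 (0.562 to 0.966), while the intervals of Zfp410, Zfp451 and Zfp532 (24.2% of words shared) took in 1. Zfp462 and Zfp711 were not analysed here.

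The mice differed in sex, and 2 members are X-linked. Zfp275 had 457 counts in P95H marrow and 669 in WT marrow, a ratio of 0.824 (0.730 to 0.929), and Zfp182 had 517 P95H and 607 WT counts, a ratio of 1.03 (0.912 to 1.16). Xist had 16907 P95H and 23 WT counts, and the Y-linked Ddx3y had 0 counts in P95H marrow and 6303 in WT marrow, as the labelled sexes have it.

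KRAB members had a lower median than members without a KRAB box, -0.25 (115 of 156 below 0) against -0.12 (73 of 110), but they were also expressed at lower levels, with a median mean CPM of 4.35 against 14.6. Within levels the order was not kept. Under 5 CPM the medians were -0.33 in 83 KRAB members and -0.27 in 23 others, between 5 and 20 CPM -0.13 in 53 and -0.20 in 43, and from 20 CPM upwards -0.06 in 20 and -0.05 in 44. Members with a KRAB box and those without stood at median percentiles of 32.9 and 34.4 among genes of like expression. Members with 0 to 3 fingers had a median of 0.01 (46 members), those with 4 to 8 of -0.16 (49), with 9 to 14 of -0.26 (111) and with 15 or more of -0.23 (60). The first of these groups was also the most highly expressed, with a median mean CPM of 21.04. Among genes of like expression it stood at a median percentile of 44.7, against 35.6, 32.0 and 34.0 in the groups with more fingers. The 11 SCAN members had a median of -0.20. The 152 members sharing under 1% of their words had a median of -0.22 and the 49 sharing 10% or more one of -0.04. Their median percentiles among genes of like expression were 31.0 and 52.4.

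In the RefSeq gene order of GRCm38.p6, 267 members could be placed, and 108 of them lay in 15 runs of at least 4 members with no more than 3 other protein-coding genes between neighbours. Members in runs had a median of -0.25 and the 159 others of -0.17. This split was not matched for level, and weakly expressed members leaned lower. In 12 runs the median was below 0 and in 4 every member was. Of all members 70.5% lay below 0, and of all genes 50.3%. Runs were defined after the data were seen and are a description.

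The run with the lowest median, -0.88, held Zfp60, Zfp626, Zfp59, Zfp974 and Zfp850 on chromosome 7. Zfp60 had 96 counts in P95H marrow and 254 in WT marrow, a ratio of 0.456 (0.357 to 0.579). Zfp626 had 78 P95H and 213 WT counts, a ratio of 0.442 (0.336 to 0.575), Zfp59 had 31 P95H and 79 WT counts, a ratio of 0.473 (0.302 to 0.725), and Zfp850 had 186 P95H and 327 WT counts, a ratio of 0.686 (0.570 to 0.824). With Zfp974, all 5 intervals lay below 1, against 32.8% of all genes, but Zfp59 and Zfp974 entered the table through the WT library alone and so had to be lower in P95H marrow. The summed level was 10.3 CPM in P95H marrow and 19.99 CPM in WT marrow. Both other measured genes inside the run, Zfp607a with 140 P95H and 339 WT counts (-0.84) and Zfp780b with 172 P95H and 285 WT counts (-0.38), were lower in P95H marrow as well. Word sharing is a limit for Zfp59 (39.1%, with Zfp60 and Zfp780b among others) and Zfp974 (14.3%), but it was 4.22% in Zfp60, 0.152% in Zfp626 and 0.0164% in Zfp850.

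The run with the next lowest median, -0.40, was that from Zfp398 to Zfp467 on chromosome 6, with 6 of 7 members below 0. For this and the following runs, the share below 0 was 70.5% over all members and 50.3% over all genes. That from Zfp180 to Zfp61 on chromosome 7 followed (median -0.36), with 6 of 6 below 0. Of its members, Zfp112 and Zfp109 entered the table through the WT library alone. Further runs with a median below 0 included that from Zfp712 to Zfp273 on chromosome 13, which holds Zfp429 (13 of 16 members below 0, median -0.35). Another was that from Zfp84 to Zfp146 on chromosome 7, which holds Zfp260, Zfp940 and Zfp82 (10 of 11 below 0, median -0.30). In the runs that hold Zfp429 and Zfp260, intervals lay below 1 for 12 and 8 members, against 32.8% of all genes. They lay above 1 for 0 in each, against 34.1%. The median mean CPM of these runs was 3.45 and 7.13, which fall in the lowest and the second bin. Of the other genes in those bins, intervals lay above 1 in 18.1% and 21.2%, and below 1 in 34.6% and 37.1%. Differences lay below 0 in 61.5% and 61.0% of those genes. In these runs Zfp455 and Zfp273, and Zfp940, Zfp82 and Zfp420, entered the table through the WT library alone. The run with most members, from Zfp677 to Zfp40 on chromosome 17, was mixed, with 18 members, a median of -0.08, and intervals below 1 for 5 and above 1 for 5.

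The highest median, 0.56, belonged to a run on chromosome 4. Zfp991 had 435 counts in P95H marrow and 330 in WT marrow, a ratio of 1.59 (1.38 to 1.84), Zfp992 had 363 P95H and 281 WT counts, a ratio of 1.56 (1.33 to 1.83), and Zfp993 had 165 P95H and 105 WT counts, a ratio of 1.90 (1.48 to 2.45). These are the genes whose KRAB boxes are printed above, and they share 75.9%, 34.5% and 78.7% of their words with each other and with the pseudogene Znf41-ps among others, so they may not be 3 separate measurements. In the same run Zfp979 stood at 0.16 and Zfp933 at -0.48, Zfp933 with 168 counts in P95H marrow and 301 in WT marrow. In the run from Zfp579 to Zfp784 on chromosome 7 all 4 members were above 0, with a median of 0.30, while 50.3% of all genes lay below 0. Words are shared to 44% in Zfp524, 26% in Zfp865 and 94.7% in Zfp784, the last with Zfp865 among others. With plain totals Zfp784 turned to -0.04.

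**Figure D5:**
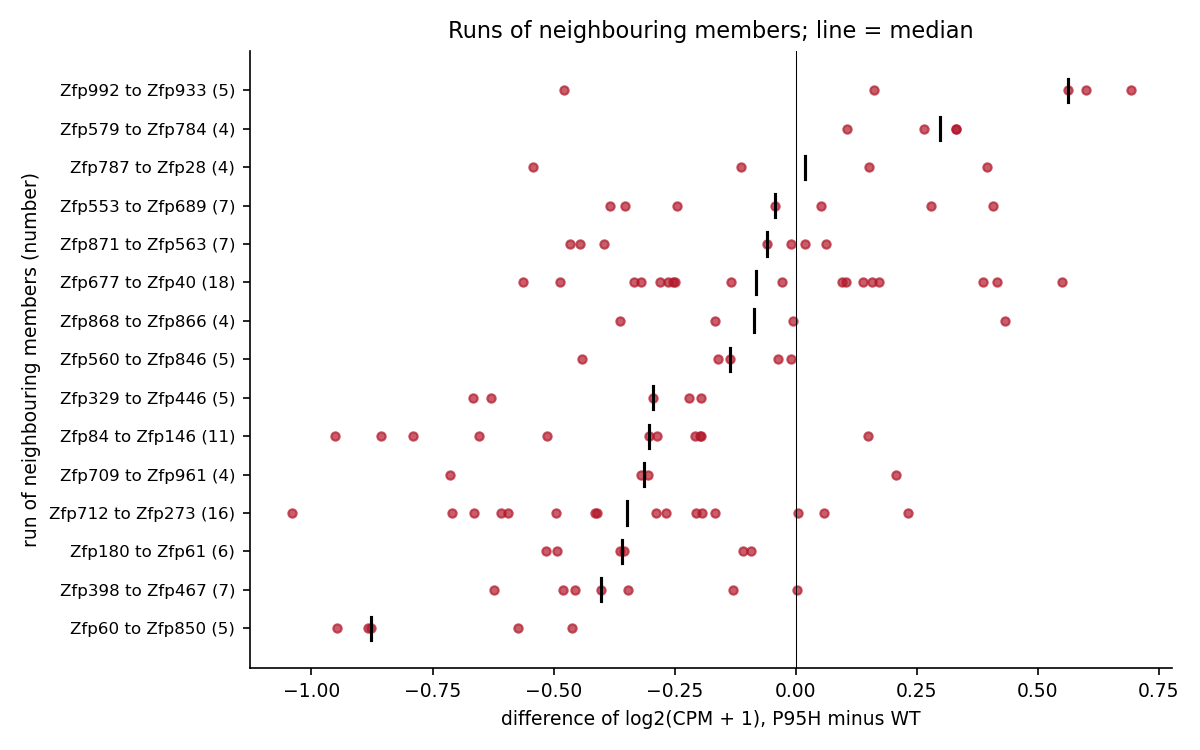
Difference of log2(CPM + 1), P95H minus WT, of each member (points) in 15 runs of neighbouring members, with a black line at each run's median and the number of members in brackets. The run from Zfp992 to Zfp933 has a median of 0.56 and that from Zfp60 to Zfp850 one of -0.88, with all 5 members below 0.

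Promoter windows of 250 bases before to 50 after the start, from RefSeq on GRCm38.p6, were matched for 223 members and 9638 other genes. Member windows were poorer in G and C, with a median of 54.7% against 60.7%, and had a lower median ratio of observed to expected CpG, 0.656 against 0.769. On either strand, GGGCGG was found in 48.0% of member windows, against 64.0% of the others, and CCAAT in 49.3% against 39.4%. The ETS-type letters CCGGAAGT were in 24 member windows (10.8%), against 8.44% of the others. AAGATGGC (5.38% against 4.86%), GCATGCGC (5.38% against 5.40%), TGACGTCA (3.14% against 3.25%) and TATAAA (6.28% against 7.23%) were about as frequent in both. No searched word contains another.

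In the run from Zfp60 to Zfp850, picked after the data were seen, 3 of 5 windows hold CCGGAAGT on one strand or the other. Those of Zfp626 and Zfp850, with differences of -0.88 and -0.46, do not hold it. The windows of Zfp59 and Zfp974 are near copies around the word, so they may not be separate occurrences. Over the 24 members that hold CCGGAAGT the median difference was -0.12. The 3 windows are printed 5′ to 3′ on the gene's strand with the word in capitals.
Zfp60, chr7:27731159-27731458, plus strand: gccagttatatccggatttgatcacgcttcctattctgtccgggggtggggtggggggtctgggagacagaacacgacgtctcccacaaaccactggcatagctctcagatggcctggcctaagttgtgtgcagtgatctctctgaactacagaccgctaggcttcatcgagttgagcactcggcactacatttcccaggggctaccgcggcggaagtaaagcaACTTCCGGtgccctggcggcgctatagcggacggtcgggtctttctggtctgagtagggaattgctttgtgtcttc
Zfp59, chr7:27838334-27838633, plus strand: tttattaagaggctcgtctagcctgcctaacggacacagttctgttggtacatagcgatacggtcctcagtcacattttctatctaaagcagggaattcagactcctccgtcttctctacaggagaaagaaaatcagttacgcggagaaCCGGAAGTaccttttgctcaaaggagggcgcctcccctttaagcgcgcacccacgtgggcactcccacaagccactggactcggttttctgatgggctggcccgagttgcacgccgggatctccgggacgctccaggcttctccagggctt
Zfp974, chr7:27929409-27929708, minus strand: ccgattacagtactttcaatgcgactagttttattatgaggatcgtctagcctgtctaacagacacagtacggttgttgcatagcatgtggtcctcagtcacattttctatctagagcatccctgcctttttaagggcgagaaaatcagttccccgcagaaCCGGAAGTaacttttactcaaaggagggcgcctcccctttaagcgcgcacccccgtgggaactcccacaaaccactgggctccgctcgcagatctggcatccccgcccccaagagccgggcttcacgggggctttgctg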

How the data were processed

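Per the labels' protocols, stranded libraries of ribosome-depleted whole marrow RNA were amplified for 9 PCR cycles and read as 75 bp pairs in 1 run. Named in the submitters' processing notes, without their roles, are edgeR, featureCounts, STAR 2.5.3a, Picard 1.96, cutadapt, Trim Galore and the build mm9. The authors deposited read counts per gene and, per the file headers, CPM, a normalised signal scaled by effective library sizes rather than by plain totals. Their deposited log2 fold change and fold (ratio) columns were only checked: for all 12860 genes they follow from both CPM values plus 0.001. Of the genes, 164 have no symbol.

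Differences were taken on log2(CPM + 1) and called at 2-fold. Ratios have exact conditional binomial (Clopper-Pearson) 95% intervals. The labels name no molecular identifiers, so intervals cover counting error only, and with 1 library per group no p-value was computed. Python 3.11.15 with pandas 2.3.3, numpy 2.4.6, scipy 1.17.1 and matplotlib 3.10.9 was used. The intervals and calls were tested on simulated data.

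Coding sequences came from GENCODE M21 (GRCm38), and gene order and promoters from RefSeq (GRCm38.p6). All 268 members matched by symbol. Coordinates of the submitters' build were not used. KRAB and SCAN boxes were found with iterated profile searches (pyhmmer 0.12.3, Biopython 1.88) seeded with Zfp1 and Zfp263, at an inclusion E-value of 0.001. Fingers were counted by the letters C, 2 residues, C, 12 residues, H, 3 to 5 residues, H, which misses other spacings.

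Members, gene lists and roles were chosen with earlier results of these data known. Genes named are the members past 2-fold, the 12 with the largest and the 12 with the smallest difference, the 8 with the highest mean CPM, those with an interval wholly beyond 1.5-fold, those in the 4 role lists and those on the X chromosome. From other lists at most 4 are named, by size of difference. A few members of neighbour runs, the members with most CPM per kilobase, and Trim28 and Setdb1 are named in addition, chosen after their values were seen.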

Additional observations from a re-analysis of the deposited data

How the results depend on the processing

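The members' median difference (-0.20) kept its sign under every alternative tried. Plain totals gave a median of -0.36, 11 members lower and 75.4% of intervals excluding 1 (67.9% as reported). Totals that leave out haemoglobin and the 20 top genes of each library gave -0.33 and 11. These scalings moved the median of all genes to -0.18 and -0.13. An added 0.1 in place of 1 gave 15 lower and 1 higher, and an added 5 gave a median of -0.12 and 1 lower. A CPM of at least 10 in 1 library gave -0.074, 1 lower and an SD of 0.62 times that of other genes (0.70 as reported). Leaving out KRAB members gave -0.12, 1 lower and 0.80 times. A size of 1.5-fold gave 32 lower and 3 higher. Centring on the median, median-ratio size factors, a CPM of at least 1 in both libraries, 10 bins and letter-suffix names moved none of these values beyond its tolerance. Of alternatives chosen after seeing the data, leaving out members that share 10% or more of their words gave -0.21, and comparison with protein-coding genes alone 0.74 times. The number of members below 0 was 189 under the reported scale, and 228 and 216 under these 2 totals. In turn these are 70.5%, 85.1% and 80.6% of members, against 49.9%, 69.9% and 64.9% of the other genes. The counts of members lower or higher in this paragraph, and the 75.4%, are given without the share of all genes at the same setting. They show how calls move with the setting and do not compare members with other genes. No paired analysis was possible because there is 1 library per group, and for the same reason no library could be left out. Depth limits the low members: under about 100 counts the intervals span a wide range, as for Zfp82.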

Other observations

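Zinc finger genes with other names are given here beside all genes of the table, of which 50.3% lay below 0, 1.76% were past 2-fold upwards and 2.1% downwards. Of 40 measured C2H2 factors of blood cells outside the Zfp names, 24 lay below 0, with a median of -0.14, 0 past 2-fold upwards and 2 downwards, and a summed level of 4448 CPM in P95H marrow and 4142 CPM in WT marrow. Ikzf3 (Aiolos), a lymphocyte factor, had 1052 counts in P95H marrow and 4280 in WT marrow, a difference of -1.72, and Hivep2, which binds immune enhancers, had 463 P95H and 1653 WT counts (-1.49). Klf7, a Krüppel-like factor, was higher, with 2021 counts in P95H marrow and 1299 in WT marrow (0.88). Of 39 Zbtb genes 24 lay below 0 (median -0.12), with Zbtb10 at 922 P95H and 3014 WT counts (-1.40) and Zbtb4, which binds methylated DNA, at 255 P95H and 769 WT counts (-1.20), while Zbtb42 had 1087 counts in P95H marrow and 686 in WT marrow (0.89).

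The 21 genes with a letter after the number had a median of -0.20 and 0 past 2-fold, with 12 below 0. Among them Zfp36l1, a relative of tristetraprolin, had 1456 counts in P95H marrow and 2986 in WT marrow (-0.75). Of the 7 Zkscan genes 4 lay below 0 (median -0.27) and of the 9 Zscan genes 5 (median -0.09), with 0 past 2-fold in both. B cell and other lymphoid markers were lower in the same library, and their part in these values was not tested.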
